A study of Bos taurus with 15 samples.

Results

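The 10 gastrointestinal hormone genes described here were taken by symbol from the 27270 genes of the count matrices. They were *CHGA* (ENSBTAG00000009836), *GAST* (ENSBTAG00000017663), *SST* (ENSBTAG00000017312), *GCG* (ENSBTAG00000000730), *CCK* (ENSBTAG00000013027), *PYY* (ENSBTAG00000046022), *NTS* (ENSBTAG00000005305), *GIP* (ENSBTAG00000005045), *GHRL* (ENSBTAG00000012328), and *TPH1* (ENSBTAG00000005343). Each symbol matched 1 gene, and the rule itself uses no measured value. Single-cell RNA was counted in 15 libraries of Holstein cattle, 11 from newborn (NB) calves and 4 from adult (AD) cattle, with 1 library for each tissue and stage. The AD duodenum, jejunum, cecum, and colon came from 1 lactating cow, and the NB tissues came from 3 calves. Which calf gave which tissue is not stated in the labels or in the text of the study. Ages beyond these stages were not given in the labels, and no animal carried a treatment or an engineered allele. The 4 AD tissues and their NB counterparts, together with the NB abomasum, ileum, and rectum, form the tract from abomasum to rectum, and the NB reticulum, omasum, liver, and salivary gland lie outside it.

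Enteroendocrine cells are scattered hormone-secreting cells of the stomach and intestinal epithelium. They store peptides in granules with the granin chromogranin A, the product of *CHGA*, and release them in response to nutrients and other luminal signals. *GAST* encodes gastrin, which drives acid secretion; *GHRL* encodes ghrelin, a stomach peptide linked to appetite and growth hormone release; and *SST* encodes somatostatin, which inhibits other endocrine cells. In the intestine, *GIP* and *GCG* encode the incretins glucose-dependent insulinotropic polypeptide and the precursor of glucagon-like peptides, *CCK* encodes cholecystokinin, which acts on gallbladder and pancreas, and *PYY* and *NTS* encode peptide YY and neurotensin, which slow gut transit. *TPH1* is no hormone gene: its enzyme makes serotonin in enterochromaffin cells, which in many mammals also carry tachykinins from *TAC1*.

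After filtering, 119798 of 172405 barcodes were kept, between 2636 and 11423 per library, and the libraries held from 17707625 to 129458578 unique molecular identifiers (UMIs). A level is given as CPM, the count scaled to the library's total UMIs over kept barcodes. Since each tissue and stage was 1 library, no difference between libraries has a replicate error and none was tested. Intervals in brackets are exact Poisson or exact binomial (Clopper-Pearson) 95% intervals and cover counting error only. Barcodes with a UMI of *EPCAM*, an epithelial surface gene, or of *CHGA* served as the set in which epithelium was sought, and 15944 of the 88746 kept tract barcodes were of this kind, from 4989 in the NB abomasum to 218 in the AD duodenum. The tissue labels were checked on defining genes. *CYM*, the milk-clotting enzyme of the calf abomasum, was at 200154 CPM in the NB abomasum, whereas the intestinal fatty acid-binding protein gene *FABP2* was at 4203 CPM in the NB duodenum but 24.7 CPM in the AD duodenum, where the duodenal factor gene *PDX1* had no UMI. Each pair of libraries shared 2 to 36 barcode sequences.

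*GHRL* was the most abundant of the 10 genes and followed a stomach-to-ileum gradient in the NB calves. Its level was 950.2 CPM (943.5 to 956.8) in the NB abomasum, 40.0 CPM in the NB duodenum, 12.4 CPM in the NB jejunum, and 0.567 CPM in the NB ileum. The NB colon had 1 *GHRL* UMI, and the NB cecum, the NB rectum, and all 4 AD libraries had none in kept barcodes, where 3 UMIs would be between 0.0592 and 0.0788 CPM in the AD libraries. The intervals of the first 4 levels did not overlap. All AD levels over kept barcodes stand for few epithelial barcodes. *EPCAM* or *CHGA* barcodes made up 2.29%, 3.55%, 8.15%, and 5.82% of those kept in the AD duodenum, jejunum, cecum, and colon. In the NB abomasum and NB duodenum they made up 55.9% and 47.7%. The duodenal and jejunal levels rested on few barcodes, because the barcode with the most UMIs held 2360 of 2537 *GHRL* UMIs in the NB duodenum and 635 of 936 in the NB jejunum. Without that barcode the levels were 2.79 and 4.00 CPM, so that the duodenum was no longer above the jejunum, while the NB abomasum stayed at 820.4 CPM.

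*CHGA* was detected along the whole tract. Its NB level was 112 CPM in the abomasum, 49.1 CPM in the duodenum, 4.01 CPM in the jejunum, 89.2 CPM in the ileum, 64.2 CPM in the cecum, 203 CPM in the colon, and 60.7 CPM in the rectum. In the AD duodenum, jejunum, cecum, and colon it was 2.57, 6.28, 21.2, and 3.82 CPM. The NB jejunum was thus the low point of the NB series, also over all deposited barcodes, where its level was 15.4 CPM with 1649 instead of 302 UMIs. The cecum and rectum were neighbors with overlapping intervals. A single barcode held 54.4% of the *CHGA* UMIs in the NB cecum and 58.9% in the NB rectum.

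The incretin genes had different positions. *GIP* was at 143 CPM in the NB duodenum and at no more than 0.0963 CPM elsewhere, and 8946 of its 9039 duodenal UMIs lay in 1 barcode, without which the level was 1.47 CPM. *GIP* was therefore measured in effect in a single NB duodenal barcode, which also held 321 *CHGA* and 22 *NTS* UMIs, and of whose UMIs 10.8% were mitochondrial. *GCG* had maxima in the NB ileum, at 121 CPM, and the NB colon, at 108 CPM, with 11.9 CPM in the NB jejunum, 28.0 CPM in the AD cecum, and 7.90 CPM in the AD jejunum. The other tract libraries were between 0.178 and 1.85 CPM. The top barcode held 36.3% of the *GCG* UMIs in the NB ileum and 59.0% in the NB colon, and without it these levels were 77.0 and 44.4 CPM, still above all others.

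Of the distal gut peptides, *PYY* was highest in the AD cecum, at 225 CPM, followed by the NB colon at 34.0 CPM and the NB ileum at 10.1 CPM. Its remaining tract levels were between 0.614 and 4.23 CPM. *NTS* was at 54.7 CPM in the NB ileum and 19.6 CPM in the NB jejunum, at 0.984 to 3.08 CPM in the other NB tract libraries, and at no more than 0.138 CPM in the AD ones. Here too a barcode dominated: 5611 of 8579 *PYY* UMIs in the AD cecum and 2040 of 2410 *NTS* UMIs in the NB ileum were in 1 barcode each. Without the top barcode of each library, *PYY* was still highest in the AD cecum, at 78.0 CPM, but 2862 of the UMIs left there were in 1 further barcode. *NTS* was then higher in the NB jejunum, at 12.2 CPM, than in the NB ileum, at 8.39 CPM.

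*SST* was at 61.1 CPM in the NB colon, 51.0 CPM in the NB duodenum, 27.9 CPM in the NB rectum, 23.5 CPM in the NB cecum, 9.89 CPM in the NB jejunum, 3.79 CPM in the NB abomasum, and 0.454 CPM in the NB ileum. The AD levels were between 0 and 0.840 CPM. From 92.7% to 99.7% of the UMIs lay in 1 barcode in the NB abomasum, duodenum, jejunum, cecum, and colon, so that the order of the *SST* levels is an order of single barcodes. *CCK* was low throughout, with 13.4 CPM in the AD colon, 9.52 CPM in the NB jejunum, and 9.34 CPM in the NB cecum as its highest levels, the last 2 with overlapping intervals. With a mitochondrial limit of 10% the AD colon level was 2.12 CPM and the NB jejunum was the highest library.

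*GAST* and *TPH1* were close to the limit of detection. *GAST* had 2 to 16 UMIs in each tract library, between 0.0509 and 0.340 CPM, and its highest level was 0.364 CPM in the NB liver. No kept barcode held more than 3 *GAST* UMIs, and the labels give no region within the abomasum. *TPH1* had 16 kept UMIs in the NB abomasum, at most 6 in any other library, and none in the NB jejunum or the 4 AD libraries. One NB rectum barcode with 1794 *CHGA* UMIs held 5 of its UMIs. Over all libraries, the NB abomasum was the highest library for 2 of the 10 genes, *GHRL* and *TPH1*.

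**Figure D1:**
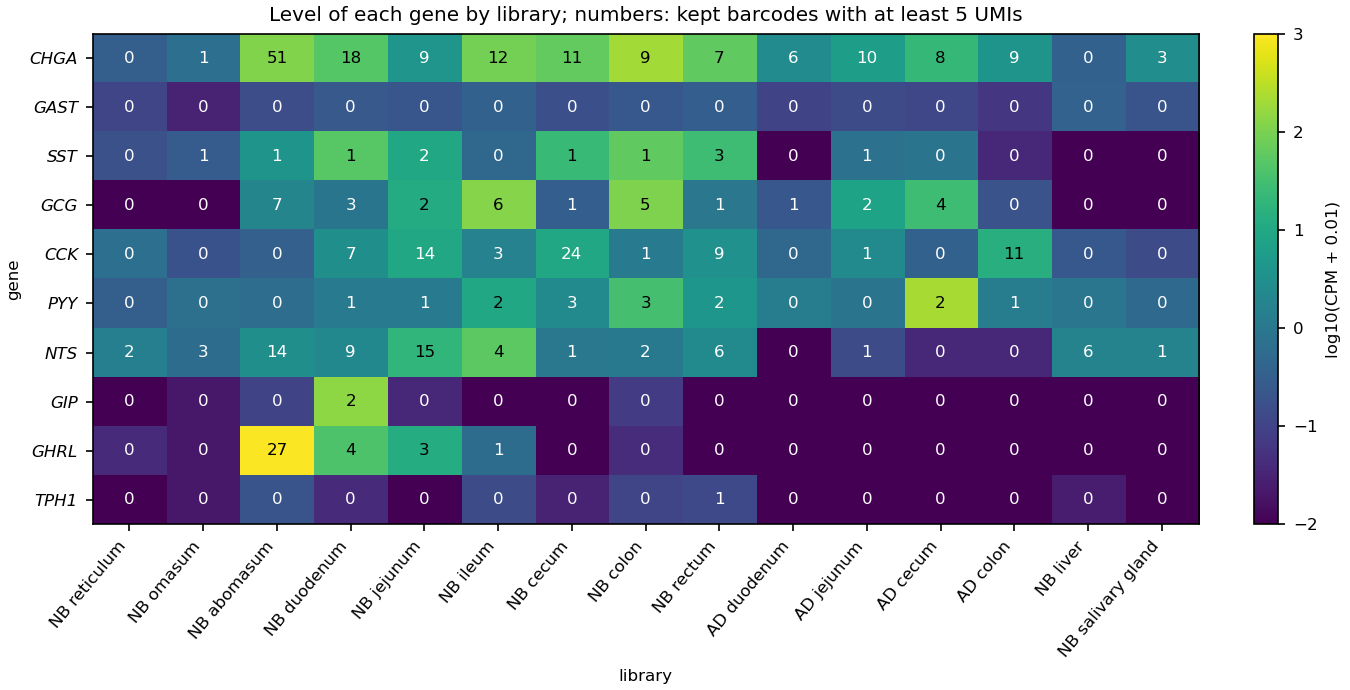
Level of each of the 10 genes (rows) in each library (columns), as log10 of CPM plus 0.01 over kept barcodes, with the number of barcodes at 5 or more UMIs written in the cells. *GHRL* peaked in the NB abomasum at 950.2 CPM and *GIP* in the NB duodenum at 143 CPM, *GCG* was high in the NB ileum and colon, and *PYY* was highest in the AD cecum.

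*GHRL* and *GIP* UMIs also occurred in cells that should lack them. In the NB abomasum, 14.5% of kept barcodes and 15.6% of *EPCAM* or *CHGA* barcodes had a *GHRL* UMI, and so did 13.2% of the 471 barcodes led by leukocyte genes, with a median depth of 4643 UMIs against 12307. In the NB duodenum the *GIP* shares were 1.10% of kept barcodes, 1.38% of *EPCAM* or *CHGA* barcodes, and 1.43% of the leukocyte-led ones. *CHGA* had a UMI in 2.83% of kept and 3.82% of leukocyte-led barcodes of the NB abomasum, and in 0.368% and 0.400% of those of the AD duodenum, so that single *CHGA* UMIs also admitted barcodes of other cells to the *EPCAM* or *CHGA* set. Single UMIs of these genes were therefore read as background, and a carrier is defined here as a barcode with at least 5 UMIs. *GHRL* had 27 carriers in the NB abomasum, which held 98.2% of its UMIs there. Hormone barcodes, namely *EPCAM* or *CHGA* barcodes that carried any of the 8 peptide hormone genes, made up 29 of 4989 in the NB abomasum (0.581%, 0.390% to 0.834%). They were between 0.309% and 0.975% in the 6 NB intestinal libraries, with overlapping intervals. These shares also hold carriers that are not endocrine. The highest share, that of the NB cecum, included 3 *CCK* carriers and 1 *NTS* carrier. All kept carriers of these genes in that library were led by leukocyte or mast cell genes and had no endocrine panel gene. In the AD duodenum 0 of 218 were found, which by 3 counts allows a share of up to 1.38%, and in the AD jejunum and AD cecum there were 2 and 3. The AD colon had 12 of 496 (2.42%, 1.26% to 4.19%), of which 11 carried *CCK* and showed no endocrine gene, as described further on.

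In the NB abomasum, the highest *GHRL* counts and the highest *CHGA* counts were in different barcodes. Endocrine barcodes were recognized by a panel of 14 genes, none of them among the 10, as those with at least 4 panel genes detected (*CHGB*, *SCG2*, *SCG3*, *SCG5*, *PCSK1N*, *NEUROD1*, *INSM1*, *FEV*, *RFX6*, *SCGN*, *PAX6*, *NKX2-2*, *ISL1*, *SYP*), a minimum chosen after seeing the data. Of 49 such barcodes, 14 carried *GHRL*, with 199 to 10796 UMIs and a median of 6426. *GHRL* made up a median of 48.3% of all UMIs in these 14 barcodes, from 4.74% to 55.7%, and more than 50% in 6 of them. Their *CHGA* count was 0 to 59 with a median of 6.5. The other 35 barcodes had 6 to 679 *CHGA* UMIs with a median of 233, and 0 to 2 *GHRL* UMIs. The *GHRL* ranges of these sets are separate by the way the sets were made, whereas the *CHGA* ranges overlap between 6 and 59 UMIs. Of the other 13 kept *GHRL* carriers, 1 had 856 *GHRL* UMIs and 3 panel genes, and the remaining 12 had 6 to 20 UMIs and at most 1 panel gene.

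The *CHGA* barcodes without *GHRL* held the tachykinin gene *TAC1*. It was detected in 24 of the 35 and reached 5 or more UMIs in 12, with a maximum of 112, against 1 of the 14 *GHRL* barcodes, which had 4 UMIs. *TPH1* was detected in 12 of the 35, at no more than 2 UMIs each, and in 1 of the 14. None of the 49 barcodes carried *GAST*, *SST*, *GCG*, *CCK*, *PYY*, *NTS*, or *GIP*. The only *SST* carrier of the library had 292 *SST* and 6 *CHGA* UMIs with 2 panel genes. The 7 *GCG* carriers held 5 to 25 UMIs of *GCG* and none carried *CHGA*. Their *CYM* level was 232550 CPM against 239717 CPM in the other *EPCAM* or *CHGA* barcodes, all of which had *CYM* UMIs. *ATP4A* and *PGC*, also looked at, were lower in these carriers, at 37.6 against 908.6 CPM and at 0 against 16.1 CPM.

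**Figure D2:**
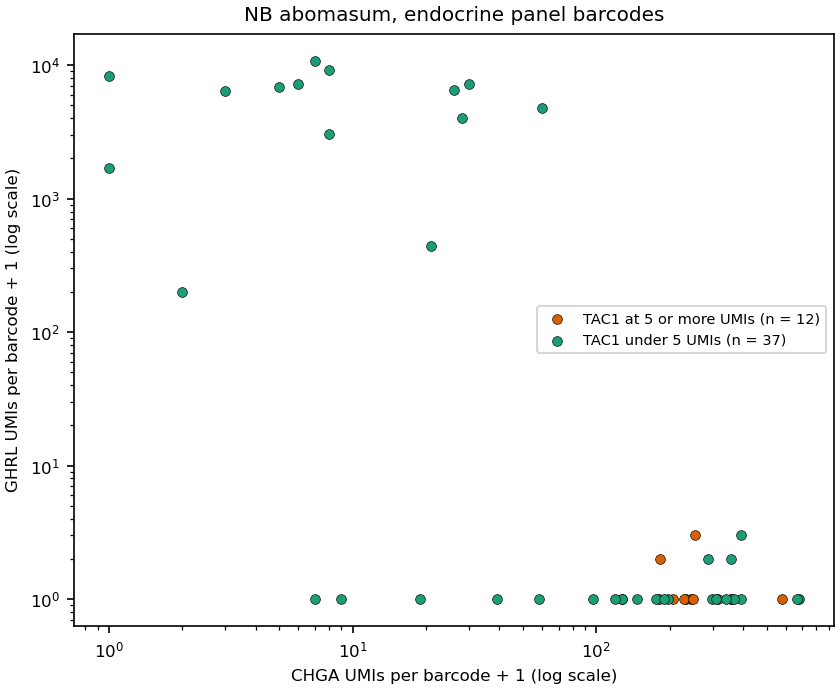
UMIs of *GHRL* (vertical) and *CHGA* (horizontal) in single barcodes of the NB abomasum, both plus 1 and on log axes, for the 49 panel barcodes, with orange for *TAC1* at 5 or more UMIs (12) and green for fewer. The 14 *GHRL* barcodes sit at 199 or more *GHRL* UMIs and at most 59 *CHGA* UMIs, and the other 35 panel barcodes lie along the *CHGA* axis at up to 679 UMIs.

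The genes with the largest ratio in carriers were named by a rule (the 5 leading genes detected in at least 25% of carriers, on log2 of CPM plus 5). For the 51 *CHGA* carriers against 4938 other *EPCAM* or *CHGA* barcodes of the NB abomasum these were *RESP18*, a dense-core granule protein gene (log2 ratio 8.01, detected in 42 of 51), *SCG3*, a granin gene (7.89), *TAC1* (7.72, 1072 against 0.108 CPM), *DIRAS3* (7.54), and *DNAJC12*, a co-chaperone gene of aromatic amino acid hydroxylases (7.35). For the 21 *GHRL* carriers with an *EPCAM* or *CHGA* UMI they were *RESP18* (9.76), *SCG3* (8.31), *TM4SF4* (7.64), the calcium sensor gene *SCGN* (7.19), and the transthyretin gene *TTR* (6.72, 4347 against 36.4 CPM). Chosen after its values were seen, *MBOAT4*, whose enzyme attaches the fatty acid that activates ghrelin, was detected in 7 of the 21 carriers and in 4 of the 4968 other barcodes. These ratios describe barcodes of 1 library and carry no test.

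Endocrine gene lists were read in the hormone barcodes of the NB abomasum, where 7.54% of 5427 tested genes were more than 2-fold higher than in the other *EPCAM* or *CHGA* barcodes. Many list genes reached the 10 CPM needed for testing only in the hormone barcodes and had to come out higher, so their counts are a description and not a result. Of the 14 panel genes, 12 were tested and were higher, 11 of them having entered in this way. The leading log2 ratios were *SCG3* (7.69), *SCGN* (6.59), *SCG2* (5.64), and *CHGB* (3.79). Of 20 endocrine transcription factors, 6 of 7 tested were higher, 5 of the 7 having entered in this way, led by *NKX2-2* (3.49), *NEUROD1* (2.72), *RFX6* (2.46), and *ISL1* (1.57). Of 17 genes of prohormone processing and storage, 9 of 10 tested were higher, 8 of the 10 having entered in this way, led by the carboxypeptidase gene *CPE* (5.13), the convertase gene *PCSK1* (4.42), *SCG5* (3.54), and *CADPS* (2.96). Some genes belong to more than 1 list. Of the other gut hormones only *PPY* (2.91) and *CARTPT* (2.24) were tested, both through the hormone barcodes alone. The 14 *PPY* UMIs were in the *SST* barcode. For the receptors 1 gene was tested and not called, and no nutrient sensor reached the 10 CPM needed for testing.

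In the intestine the panel gave 65 NB and 19 AD barcodes before doublets were scored. Panel barcodes held 99.2% of the UMIs of NB *GCG* carriers, 98.4% for *GHRL*, 97.3% for *PYY*, 96.8% for *CHGA*, 90.6% for *SST*, and 86.4% for *NTS*, with the abomasum included, but 57.4% for *CCK*. In the AD libraries the share was 95.9% for *CHGA*, 98.9% for *GCG*, and 1.03% for *CCK*. Panel barcodes were rare, at 0.0828% to 0.226% of barcodes in the NB intestinal libraries and 0.0534% to 0.0761% in the AD jejunum, cecum, and colon. These shares are over all barcodes, which in the AD libraries were mostly leukocyte-led. The 7, 5, and 7 AD panel barcodes of jejunum, cecum, and colon stood beside 516, 811, and 571 *EPCAM* or *CHGA* barcodes. In NB, 17, 8, and 7 stood beside 1620, 764, and 1144. Set against these barcodes, the NB share was, of jejunum, cecum, and colon, higher only in the cecum. In the duodenum, 18 NB panel barcodes stood beside 3843 *EPCAM* or *CHGA* barcodes, and 0 AD ones beside 268. In the AD duodenum none of 10365 barcodes passed, and none did outside the tract. Not all are endocrine by every marker, since 4 NB barcodes (2 in the cecum, 2 in the rectum) and 1 AD colon barcode had at most 1 *CHGA* UMI and were led by fibroblast, neuron, or glia genes.

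*CHGA* was carried by 57 of the 65 NB panel barcodes (87.7%). *GCG* came next with 21 (32.3%, 21.2% to 45.1%), then *PYY* and *NTS* with 9 each, *CCK* and *GHRL* with 8 each, *SST* with 7, and *GIP* with 2. In 27 barcodes none of the 8 hormone genes reached 5 UMIs, and 20 of these had at least 20 *CHGA* UMIs. All carriers of *GHRL*, *NTS*, and *GIP* among these barcodes were in the small intestine, as 8, 9, and 2 of 44, and 0 of 21 were in the large intestine. In the 19 AD barcodes *CHGA* was carried by 17, *GCG* by 6, *SST* and *PYY* by 3 each, *CCK*, *NTS*, and *GIP* by 1 each, and *GHRL* by none.

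Several hormones shared barcodes. *GCG* was carried together with *PYY* in 8 of the 9 NB *PYY* barcodes, with *NTS* in 6 of the 9 *NTS* barcodes, and with *CCK* in 5 of the 8 *CCK* barcodes, and 4 barcodes carried *GCG*, *NTS*, and *CCK* at once. An NB jejunum barcode of 4713 UMIs held 349 UMIs of *GCG*, 318 of *CCK*, 552 of *NTS*, and 22 of *PYY*. An NB ileum barcode held 1934 UMIs of *GCG*, 378 of *PYY*, and 178 of *NTS*, and another held 533 of *GCG* and 2040 of *NTS*. Of the 12 jejunal and ileal *GCG* barcodes, 6 carried *NTS* and 3 carried *PYY*. Of the 4 NB colon ones, 0 carried *NTS* and 2 carried *PYY*, at 1297 *GCG* and 876 *PYY* UMIs in 1 barcode and at 1936 and 106 UMIs in the other. *PPY*, the pancreatic polypeptide gene, reached 529 and 1942 UMIs in the same pair of colon barcodes, and all 6 NB *PPY* carriers also carried *GCG*.

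Of the 7 NB *SST* barcodes 0 carried *GCG*, which 21 of the 65 NB panel barcodes carried, and 1 of the 3 AD *SST* barcodes carried it. An *SST* barcode held 3209 UMIs in the NB duodenum, 1845 in the NB colon, 1191 in the NB cecum, 856 in the NB rectum, and 723 in the NB jejunum, while the other 2 panel barcodes with *SST*, both in the NB jejunum, had 7 and 13. Outside the panel, an NB rectum barcode with 3 panel genes held 514 *SST* and 189 *CHGA* UMIs. *GHRL* in the intestine was paired with *MLN*, which encodes motilin, a peptide related to ghrelin that drives the fasting contractions of the gut. Of 8 NB intestinal *GHRL* barcodes, 6 carried *MLN*, and in the duodenal barcode with 2360 *GHRL* UMIs there were 10271 *MLN* UMIs. In these 6 *MLN* was more abundant than *GHRL*, by UMIs of the same barcode. In contrast, the 49 abomasal panel barcodes held 1 *MLN* UMI in all.

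In the AD cecum, a barcode held 5611 UMIs of *PYY* and 298 of *GCG*, and another held 2862 of *PYY*, 746 of *GCG*, and 846 of *PPY*. The latter was led by leukocyte genes and had 1 UMI of the leukocyte gene *PTPRC*. An AD jejunum barcode with 370 *GCG* and 33 *SST* UMIs had 2 *PTPRC* UMIs. In the AD colon, 6 of the 7 panel barcodes carried *CHGA*, at 92 to 2361 UMIs, together with *TAC1*, at 10 to 231 UMIs, and none carried any of the 8 hormone genes. The one with 92 *CHGA* UMIs was led by leukocyte genes and had 4 *PTPRC* UMIs. A barcode with 1561 *CHGA* UMIs held 6 UMIs of *TPH1*, the highest count of this gene in any panel barcode.

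**Figure D3:**
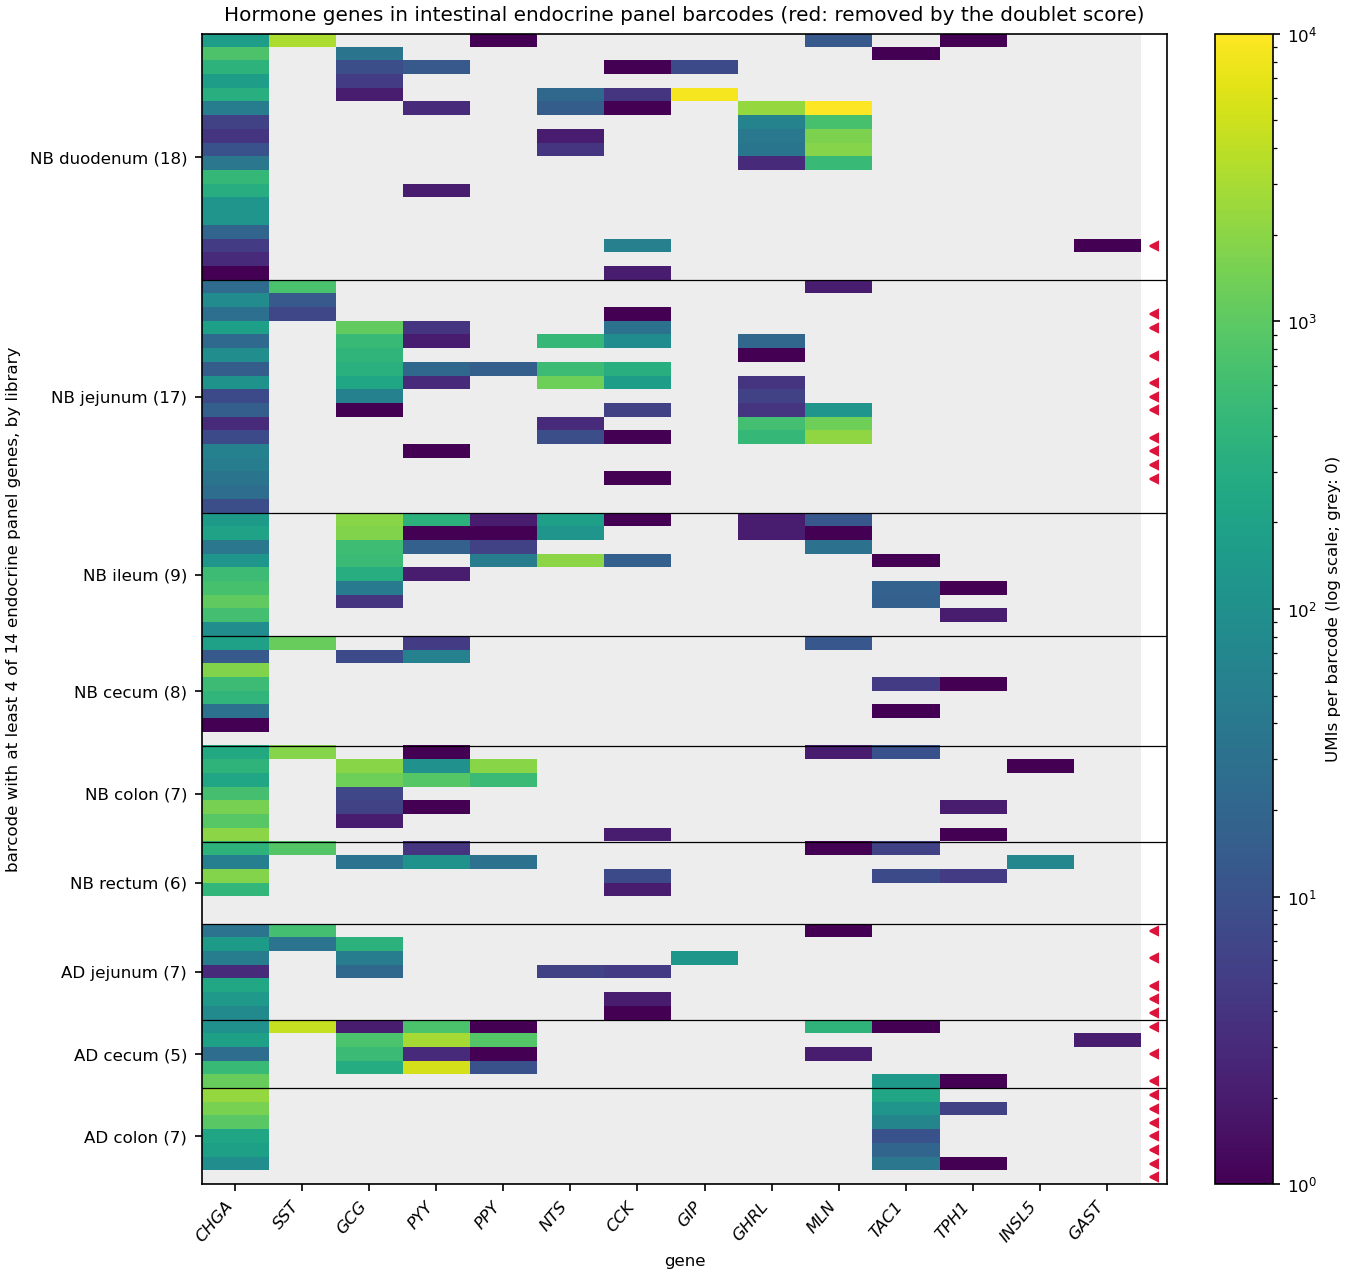
UMIs of the 10 genes and of *TAC1*, *MLN*, *PPY*, and *INSL5* (columns, log color scale, gray for 0) in the intestinal panel barcodes (rows, grouped by library, with a red mark for those removed by the doublet score). Of the 12 *GCG* barcodes of NB jejunum and ileum, 6 carry *NTS*, and 2 of the 4 of the NB colon carry *PYY*, *GHRL* barcodes mostly share them with *MLN*, and NB *SST* barcodes hold no other peptide gene above 13 UMIs.

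Among all *EPCAM* or *CHGA* barcodes, where no panel was used, these pairs were counted again. In the NB intestine 9 of 18 *GCG* carriers also carried *PYY* (50%, 26.0% to 74.0%), against 0.0327% of the other barcodes. With doublets left in it was 9 of 22. *NTS* was carried by 5 of 18 *GCG* carriers, or 6 of 22 with doublets left in, and *MLN* by 7 of 8 *GHRL* carriers, or 8 of 10. In the NB abomasum, 10 of 51 *CHGA* carriers carried *GHRL* (19.6%, 9.82% to 33.1%), against 0.223% of the others. Over the 11 tract libraries, 4 of the 45 pairs of the 10 genes were carried together by 10 or more barcodes: *CHGA* with *GCG* (20), *CHGA* with *GHRL* (15), *CHGA* with *PYY* (13), and *GCG* with *PYY* (11). A barcode without *EPCAM* entered this set only through *CHGA*, which favors the pairs and shares that involve *CHGA*. Of the 27 kept *GHRL* carriers of the NB abomasum, 21 were in the set. Barcodes of 1 library share an animal and a preparation, so these shares describe the libraries.

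In the NB intestine the 65 panel barcodes, compared with 9841 other *EPCAM* or *CHGA* barcodes within the limits, had 13.6% of 8485 genes more than 2-fold higher. Panel genes chose the barcodes and were not counted. The 8 tested transcription factors (of 13) were higher, but 7 of them reached 10 CPM only in the panel barcodes and had to be, among them *ETV1* (4.16), *PAX4* (2.96), *ST18* (2.69), and *RFX3* (2.19). Of 15 processing genes 7 of 9 tested were higher, and of the 4 that had 10 CPM in the other barcodes 3 were higher. The leading ones were *CPE* (5.78), *PCSK1* (5.52), *CADPS* (4.08), and the aromatic amino acid decarboxylase gene *DDC* (3.77). All 5 tested of 16 other gut hormones entered through the panel barcodes alone. The leading log2 ratios were those of *MLN* (11.06, 28755 against 8.49 CPM), *PPY* (9.58), *INSL5* (4.40, 70 of its 71 UMIs in 1 NB rectum barcode), and *TAC1* (4.31). Of 5 receptor genes tested, *GCGR* (2.05) and *GLP1R* (1.90) entered through the panel barcodes alone. Of the other 3, *SORT1* (-1.02, 5 UMIs in the panel barcodes) and *DPP4* (-1.32, 1 UMI) were lower and none was higher. *DPP4* encodes the protease that inactivates incretins. Of 4 nutrient sensor genes tested, *GPR142* (8 UMIs against none) entered through the panel barcodes alone. Of the other 3, the bile acid receptor gene *GPBAR1* was higher (3.59, 184 against 10.7 CPM). The glucose and peptide transporter genes *SLC5A1* (-2.18) and *SLC15A1* (-2.72) were lower, with 2 UMIs each in the panel barcodes. These genes were named after their values were seen. The 13.6% covers all tested genes. No share was computed of all genes that were lower, or of those with 10 CPM in the other barcodes, so these counts are a description.

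The removal of doublets bore unevenly on these rare barcodes. The doublet score, which compares each barcode with simulated sums of barcode pairs, removed 10 of 17 panel barcodes in the NB jejunum (58.8%, against 10.4% of all barcodes), 5 of 7 in the AD jejunum (71.4%, against 8.76%), 3 of 5 in the AD cecum (60%, against 7.49%), and 7 of 7 in the AD colon (100%, against 7.36%). In the NB abomasum, ileum, cecum, colon, and rectum it removed none, and in the NB duodenum 1 of 18. Of all *EPCAM* or *CHGA* barcodes within the limits, it removed 12% in the NB jejunum and 31.2%, 12.9%, and 13.1% in the AD jejunum, cecum, and colon. Over the tract 107 of 133 panel barcodes remained. Of the 15 AD barcodes with a high score, 2 had *PTPRC* UMIs, at most 4, as did 2 of the 4 AD barcodes that were kept, whereas 0 of 114 NB panel barcodes had any. Among those removed were an AD cecum barcode with 4376 *SST*, 738 *PYY*, and 404 *MLN* UMIs, an AD jejunum barcode with 132 *GIP* and 49 *GCG* UMIs, and an AD jejunum barcode with 637 *SST* UMIs. The levels given above do not hold these UMIs. In the NB jejunum *GCG* was at 26.4 CPM over all deposited barcodes, against 11.9 CPM in kept ones. Over all deposited barcodes the AD colon had 5603 *CHGA* UMIs, against 150 in kept ones, and the AD cecum had 5676 *SST* UMIs, against 32. *GHRL* stayed low, with 1 UMI in all deposited barcodes of the AD jejunum and none in the other AD libraries. Whether the removed barcodes are single cells was not tested.

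**Figure D4:**
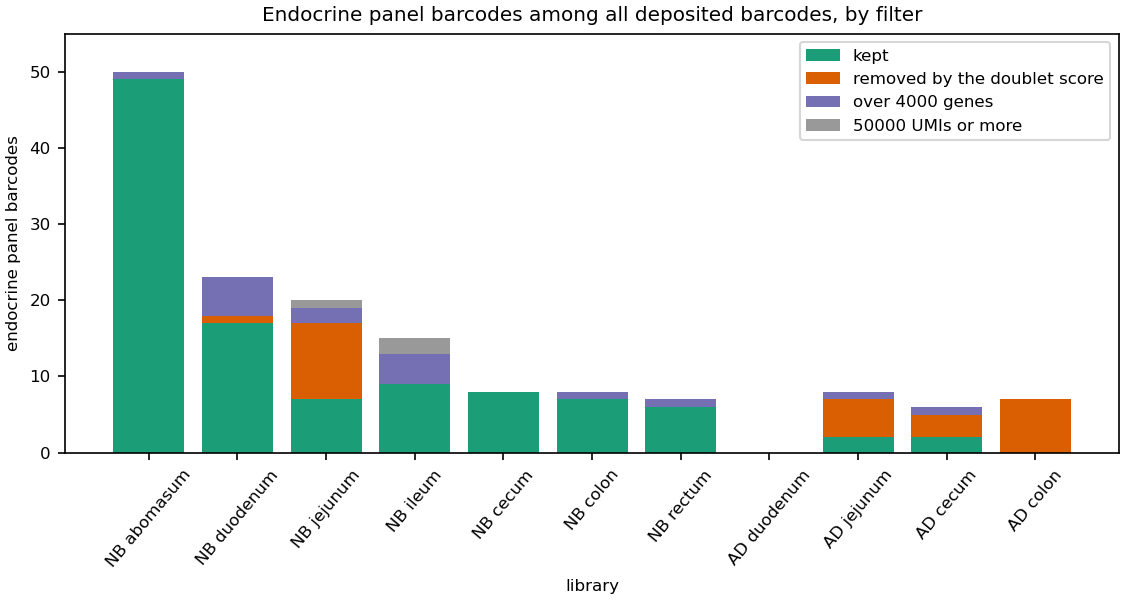
Number of panel barcodes per tract library among all deposited barcodes (bars from 0), split into those kept, those removed by the doublet score, and those over 4000 genes or at 50000 UMIs or more. All 7 AD colon panel barcodes and 10 of 17 within the limits in the NB jejunum were removed by the doublet score, against none in the NB abomasum, where 49 were kept.

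The NB and AD libraries were compared in 4 tissues over *EPCAM* or *CHGA* barcodes, as a description without a test. Stage, animal, and dissociation changed together and cannot be told apart: NB intestine was treated with EDTA and trypsin before the enzyme kit, AD tissues were not, and the AD jejunum and colon had another kit than the AD duodenum and cecum. Called means a difference of more than 2-fold on log2 of CPM plus 5, as NB minus AD, among genes with 10 CPM or more in either library. A gene that reached 10 CPM in only 1 library could be called only in that direction, which holds for 12 of the 18 calls that follow, so these counts are a description. The other 6 calls are those of *CHGA* in 3 tissues, *SST* and *GCG* in the jejunum, and *PYY* in the cecum. In the duodenum 20.6% of genes were NB higher and 27.6% AD higher. Of 4 hormone genes tested there, *GIP* (212 CPM in NB), *SST* (76.0 CPM), and *GHRL* (59.5 CPM) were NB higher, with no UMI in the 218 AD barcodes. A single NB barcode held 8946 of 9002 *GIP* UMIs, another 3209 of 3226 *SST* UMIs, and another 2360 of 2523 *GHRL* UMIs. At a mitochondrial limit of 10%, *GIP* no longer reached the level needed for testing. *CHGA* was at 73.3 CPM in NB and 92.5 CPM in AD and was not called, but its own UMIs choose the barcodes, 35 of the 218 AD ones among them. Over all kept barcodes it was at 49.1 CPM in NB and 2.57 CPM in AD (log2 difference 2.84). The other 6 genes did not reach 10 CPM in either library. The 6 AD carriers behind this *CHGA* level had 7 to 13 UMIs, and none of them had a panel gene.

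In the jejunum, with 7.92% of genes NB higher and 16.9% AD higher, *NTS* (63.6 against 2.20 CPM, log2 difference 3.25), *CCK* (30.0 against 2.57 CPM, 2.21), *SST* (45.9 against 12.1 CPM, 1.57), and *GHRL* (57.9 CPM against no UMI) were NB higher. *CHGA* (18.8 against 116.5 CPM, -2.35) and *GCG* (54.0 against 143.6 CPM, -1.33) were AD higher. These levels rested on few barcodes. One NB barcode held 318 of 483 *CCK* and 552 of 1022 *NTS* UMIs, and another held 461 *NTS* UMIs. Single NB barcodes held 723 of 738 *SST* and 635 of 931 *GHRL* UMIs, and 1 AD barcode held 370 of 392 *GCG* UMIs. With doublets left in, *SST* turned to -1.60 and *GCG* to 0.69, and without barcodes that had a *PTPRC* or *COL1A2* UMI, *GCG* turned to 1.86 and *CHGA* to 0.82. Over all kept barcodes *GCG* was at 11.9 CPM in NB and 7.90 CPM in AD (0.39), the other direction, and *CHGA* at 4.01 and 6.28 CPM (-0.32). *CHGA* UMIs themselves admit barcodes to the set, and 58 of the 355 AD jejunum barcodes had one.

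In the cecum, with 11.2% of genes NB higher and 7.64% AD higher, *PYY* was at 10.2 CPM in NB and 1450 CPM in AD (-6.58), and *GCG* at 1.47 and 180.1 CPM (-4.84). *CHGA* (437 against 138.1 CPM, 1.63) and *SST* (160 against 0.513 CPM, 4.90) were NB higher, but with doublets left in these were 0.34 and -2.11. The *CHGA* call was also lost at a mitochondrial limit of 10% (0.82) and without the upper limit on genes (0.39), and over all barcodes the value was -0.85. In the colon, with 4.6% of genes NB higher and 18.1% AD higher, *GCG* was at 274 CPM in NB and 0.831 CPM in AD (5.58), *PYY* at 85.0 and 1.94 CPM (3.70), *SST* at 155.1 CPM and no UMI, and *CHGA* at 517 and 41.5 CPM (3.49). *CHGA* turned to -1.37 with doublets left in. *CCK* was AD higher, at 1.26 CPM in NB and 138 CPM in AD (-4.51). *GCG* and *PYY* thus had opposite orders in cecum and colon, and each of these levels rested on 5 or fewer carriers.

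The split of calls over all genes moved with the scaling. NB-higher genes made up 42.7%, 31.9%, 59.4%, and 20.3% of the calls in duodenum, jejunum, cecum, and colon, against 67.3%, 62%, 66.5%, and 48.7% with TMM factors and 63.9%, 61.6%, 67.4%, and 50.7% with RLE factors. The median log2 difference of all genes was -0.35, -0.34, -0.11, and -0.35, and the TMM factors alone shifted NB minus AD by 0.61, 0.48, 0.12, and 0.42, which the pseudocount makes smaller for genes at low levels. Of the hormone gene calls, that of jejunal *GCG* was lost, at -0.88 with TMM and -0.89 with RLE.

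Not all carriers were led by epithelial genes. Carriers were assigned to the lineage of which the largest share of marker genes was detected. In the NB tract *SST* carriers were epithelial in 9 of 9 cases, *GCG* carriers in 22 of 25, *PYY* carriers in 9 of 12, *GHRL* carriers in 25 of 35, and *CHGA* carriers in 84 of 117. Many of the rest were endocrine panel barcodes. In the NB abomasum, *CHGA* carriers led by fibroblast genes (4), blood endothelial genes (2), or no lineage (9) had medians of 8, 8, and 9 panel genes. Fibroblast-led *GHRL* carriers there held 7804 UMIs, of which 3037 and 4761 were in barcodes with 9 and 6 panel genes. *NTS* carriers were led by blood endothelial genes in 42 of 51 cases, with 1065 UMIs against 2929 in 6 epithelial carriers. An NB jejunum barcode with 8 panel genes held 461 of the 1065, and the other 41 held 604. Outside the tract, 11 of 12 *NTS* carriers were led by blood endothelial genes, in the NB liver, omasum, and reticulum. The 5 leading genes of 41 such tract carriers against 8530 other endothelial barcodes, chosen after seeing the data as are all leading genes that follow, were the retinaldehyde dehydrogenase gene *ALDH1A2* (3.48), *CCDC80* (3.28), *C5AR2* (3.20), *PRR5* (2.74), and *TGM2* (2.71). Of the lymphatic endothelial genes looked at, *CCL21* and *PROX1* were each detected in 1 of the 41 carriers, *PDPN* in 0, and *LYVE1* in 13 (76.6 against 45.5 CPM). Among the 8530 others, *CCL21* was detected in 478, *PROX1* in 143, *PDPN* in 53, and *LYVE1* in 736, so that *LYVE1* was not low in the carriers. *CCL21*, *PDPN*, and *LYVE1* were among the lymphatic markers used to assign the lineages, so their detection is partly set by the choice of carriers.

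Most *CCK* carriers had no endocrine panel gene, although the 8 NB panel barcodes described above held 57.4% of the *CCK* UMIs of NB carriers. In the NB tract 49 of 58 kept carriers were led by leukocyte genes. They were most frequent in the NB cecum, where 24 carriers held 5 to 28 UMIs and none had a panel gene. Their leading named genes against 18057 other leukocyte-led barcodes were the IgE receptor gene *FCER1A* (2.77, in 25 of 49), *KCNK16* (2.45), *GRASP* (2.23), and the neutrophil chemokine gene *CXCL8* (1.99). In the AD colon all 11 kept carriers were epithelial and held 8 to 195 *CCK* UMIs with a median of 26, without any panel gene or *CHGA* UMI. All 11 had the chloride-bicarbonate exchanger gene *SLC26A3* of surface colonocytes (8.36, 5034 against 10.4 CPM, in 12 of 485 other barcodes), followed among named genes by *TMIGD1* (6.04) and *FGFBP1* (5.86). A further 5 carriers of this library exceeded 4000 genes and 5 exceeded the mitochondrial limit.

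*CHGA* itself was carried by leukocyte-led barcodes in the AD tissues, in 31 of 33 kept carriers, and in 8 of 117 in the NB tract. The 31 AD ones had 487 UMIs in all, 187 of them in 1 AD cecum panel barcode and 300 in the other 30, against 663 in 2 epithelial ones. With doublets left in, 38 leukocyte-led carriers had 1795 *CHGA* UMIs and 14 epithelial ones had 6653. The 30 kept leukocyte-led carriers with fewer than 4 panel genes were compared with 34196 other leukocyte-led barcodes. Their leading genes were the T cell checkpoint gene *CTLA4* (4.18, in 14 of 30), *TNFRSF18* (4.05, in 22), the transcription factor gene *GATA3* (2.99), *KIT* (2.89), and *TNFRSF4* (2.84). The *EPCAM* or *CHGA* barcodes of the AD libraries thus included leukocyte-led ones, and the part of free RNA or of joined cells in these carriers was not tested.

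**Figure D5:**
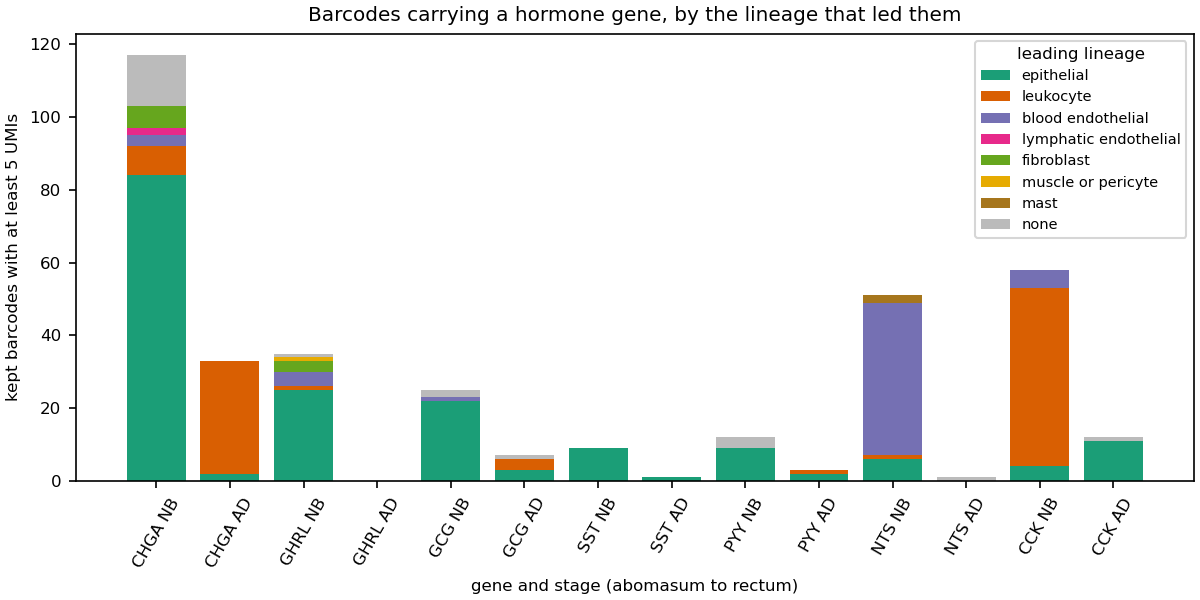
Number of kept carriers (vertical axis, from 0) of 7 of the genes in the NB and AD tract libraries, with bars colored by leading lineage. *SST* and *GCG* carriers in NB were mainly epithelial, *NTS* carriers mainly blood endothelial (42 of 51), *CCK* carriers mainly leukocyte-led in NB (49 of 58) and epithelial in AD, and AD *CHGA* carriers mainly leukocyte-led (31 of 33).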

How the data were processed

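Single-cell suspensions were sequenced with 10x Genomics chemistry, and the authors aligned reads and made raw UMI count matrices per library with Cell Ranger 3.1.0, per the labels. The deposited counts were used as they stand. The outer muscle layers had been removed from the tissues. The 10 genes and all gene lists were chosen with earlier results of these data known.

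Barcodes with 500 to 4000 genes, fewer than 50000 UMIs, and less than 40% mitochondrial UMIs were kept after the study's methods. Doublets were then removed with a score from simulated doublets (0.8% per 1000 barcodes), written for this report. The study's methods name another tool for this step, DoubletFinder, so the barcodes removed can differ from those of the study. Levels are CPM over kept barcodes, with exact Poisson intervals. A level of 0 is limited by 3 counts. Log2 ratios used a pseudocount of 5 CPM, genes at 10 CPM or more, and a 2-fold limit. With 1 library per group there was no test. The named genes were the 10 members, the 5 leading genes of a member's carriers (at least 20 in a library), and the 4 leading genes of each list in the library with the most hormone barcodes. On simulated counts for colon NB against AD (17188 genes), 200 of 200 changed genes were recovered with 0 false calls among 7317. The changes were set beyond the 2-fold limit, in genes well above 10 CPM, and with counting error only. This outcome was thus largely fixed in advance and checks only that the calculation runs as written. In the measured libraries many hormone gene UMIs lay in a few barcodes, and how often calls between NB and AD are false there was not tested. Alternatives were other scalings (TMM and RLE from edgeR 4.0.16 on R 4.3.3), other filters, thinning to 1000 UMIs, and other minimum UMIs. Leaving out replicates was not possible with 1 library per group. No sequences were used, and genome coordinates are not used here. Python 3.11.15, NumPy 2.4.6, SciPy 1.17.1, pandas 2.3.3, and scikit-learn 1.9.0 were used.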

Additional observations from a re-analysis of the deposited data

Results flagged for a closer look

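Of the 10 genes, 4 had opposite orders of NB and AD in different tissues, over *EPCAM* or *CHGA* barcodes and past 2-fold. As log2 differences of NB minus AD, *CHGA* was at -2.35 in the jejunum, 1.63 in the cecum, and 3.49 in the colon, and *GCG* was at -1.33, -4.84, and 5.58 in the same tissues. *CCK* was at 2.21 in the jejunum and -4.51 in the colon, and *PYY* at -6.58 in the cecum and 3.70 in the colon. For *CHGA* the opposite orders did not hold with doublets left in (-1.79, 0.34, and -1.37) or over all deposited barcodes (-1.42, -0.85, and -2.22). For *GCG* the jejunal value was 0.69 with doublets left in and -0.81 over all barcodes. With 1 library per tissue and stage these differences were not tested.

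UMIs of the genes were also counted in the 4 libraries outside the tract, above the limit that a count of 0 allows. The NB reticulum held 22 UMIs of *CHGA*, 7 of *GAST*, 11 of *SST*, 45 of *CCK*, 22 of *PYY*, and 97 of *NTS*. The NB omasum held 62 of *CHGA*, 25 of *SST*, 16 of *CCK*, 63 of *PYY*, and 54 of *NTS*. The NB liver held 23 of *CHGA*, 24 of *GAST*, 15 of *CCK*, 59 of *PYY*, and 112 of *NTS*, and the NB salivary gland 45 of *CHGA*, 8 of *PYY*, and 27 of *NTS*. No barcode of these libraries had 4 panel genes.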

How the results depend on the processing

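Reversals of NB against AD concerned 3 genes. *SST* in the jejunum turned from 1.57 to -1.60 with doublets left in and -1.65 over all deposited barcodes, and *SST* in the cecum from 4.90 to -2.11 with doublets left in, -1.24 without the upper limit on genes, and -3.48 over all barcodes. *CHGA* in the colon turned from 3.49 to -1.37 and -2.22 with doublets left in and over all barcodes. *GCG* in the jejunum turned from -1.33 to 1.86 without barcodes that had a *PTPRC* or *COL1A2* UMI, and was no longer past 2-fold with doublets left in (0.69) or over all barcodes (-0.81). The barcodes with a high doublet score, listed in the report, entered these settings by construction. The hormone genes that were AD higher in the jejunum fell from 2 to 1 with TMM, 1 with RLE, and 0 without *PTPRC* or *COL1A2* barcodes. In the cecum those NB higher fell from 2 to 0 with doublets left in, 0 without the upper gene limit, and 0 over all barcodes. In the colon those AD higher rose from 1 to 2 with doublets left in and 2 over all barcodes. The NB abomasum was the highest library for 2 genes, for 1 with doublets left in and 1 over all barcodes, and for 3 with TMM, which moved the highest *CHGA* library from the NB colon to the NB abomasum. Hormone barcodes numbered 96 over the 11 libraries, 1421 at a minimum of 1 UMI, and 53 after thinning to 1000 UMIs. Pairs carried together by 10 or more barcodes fell from 4 to 2 with a mitochondrial limit of 10% and 2 at a minimum of 10 UMIs. In the other 95 combinations of a summary value and a setting, the value stayed within 1.5 times of the one reported. These summary values are counts, which stay the same when 1 gene replaces another, as *SST* did *GCG* in the jejunum with doublets left in. Of the values of single genes or single libraries, 250 stayed, 79 moved past their interval or were no longer past 2-fold, and 8 reversed. At a mitochondrial limit of 10%, the NB duodenum *GIP* level was 1.45 CPM and the AD colon *CCK* level 2.12 CPM, which moved the highest *CCK* library to the NB jejunum and that of *SST* to the NB duodenum. With doublets left in, *SST* was highest in the AD cecum, and over all barcodes *CHGA* was highest in the AD colon. The causes were not tested. Counts of a few barcodes limit all of these values. No paired analysis was possible because each group had 1 library, so that no shared replicate numbers beyond the first exist.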
